A study of Rattus norvegicus with 12 samples.

Results

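Collagen chains were measured by 58 probe sets of a rat expression array, chosen because their single annotated gene symbol names a collagen alpha chain. They stood for 41 of the 14217 genes that had a probe set of their own. The brightest probe set of a gene, by its mean over all 12 arrays, stands for the gene, and the other probe sets of the 14 genes that had several served as a check. The 41 genes were sorted into 11 fibrillar chains, 7 basement membrane chains (type IV with types XV and XVIII) and 23 other chains. The 3 further collagen symbols of the RefSeq gene table, Col28a1, Col4a3 and Col6a4, were not analysed here.

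The liver RNA came from male rats, per the labels, of 2 strains kept free of specific pathogens and viral antibodies. Long Evans Cinnamon (LEC) rats are known for loss of the copper transporter Atp7b, for copper build-up and hepatitis and for liver tumors late in life, and Long Evans Agouti (LEA) rats serve as their healthy relatives. Tumor and adjacent nontumor liver of LEC rats aged 67 weeks had 4 arrays each, and each of these arrays held mixed RNA of 2 of 8 paired specimens. A single array each held an RNA pool of LEA liver at 67 weeks and of LEC liver at 4, 26 and 39 weeks, so an array here is a pool and not an animal. Values are log2 expression, on which 1 unit is a 2-fold difference, and they are compared only between arrays for the same probe set. Levels are called absent when they did not pass the brightest of 27 probe sets for bacterial RNA on the same array, which lay between 5.52 and 6.22. This limit was 5.52 to 5.67 on the tumor arrays and 5.88 to 6.01 on the nontumor arrays. The same level can therefore be absent in nontumor but not in tumor liver.

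The liver label was checked against 9 hepatocyte genes, whose mean log2 level was 13.54 to 13.83 on the 8 arrays of other than tumor liver and 9.57 to 13.26 on the tumor arrays. Their leading gene, albumin (Alb), was at 14.51 to 14.59 on those 8 arrays. The label of sex did not hold on 10 of the 12 arrays. The female-specific RNA Xist was at 11.36 to 13.12 on those 10 arrays and the Y-linked Eif2s3y at 3.65 to 3.81, against 5.27 and 8.90 on the LEC 26-week array and 5.67 and 8.18 on the LEC 39-week array. These 2 arrays therefore stand apart from all others, and no test below compares them. The LEA array also read 12.22 for the pancreatic enzyme gene Cpa1, which was at 5.33 to 7.48 elsewhere. Other pancreatic genes of the same list did not share this. Prss1 (6.77) and Cela1 (6.90) were below all 4 nontumor arrays on the LEA array, and Amy2a3 and Ctrb1 were absent on every array.

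Collagens are proteins of 3 alpha chains wound into a triple helix, secreted into the space between cells. Fibrillar collagens such as types I and III form the cables of scar tissue, type IV forms the sheet-like network of basement membranes, and other types bead, link or anchor these structures. In the liver, hepatic stellate cells that turn into myofibroblasts are known as the main makers of fibrillar collagen, and endothelial and bile duct cells also make type IV collagen.

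The start regions of 4 chains that are described below are shown because they include a pair of genes that share one. Sequences were those of RefSeq on the build GRCr8, 250 bases before to 50 bases after the start site, and 32 of the 41 collagen genes had an entry. Col4a1 (chr16:84885347-84885646, plus strand) and Col4a2 (chr16:84885471-84885770, minus strand) lie head to head, with start sites 77 bases apart and 176 bases in common. Col1a2 (chr4:33518307-33518606, plus strand) and Col5a2 (chr9:55090102-55090401, minus strand) are fibrillar chains with start regions of their own. Capitals mark GC boxes (GGGCGG, or CCGCCC on the other strand), CCAAT boxes (CCAAT or ATTGG) and the TATA box (TATAAA or TTTATA).
Col4a1: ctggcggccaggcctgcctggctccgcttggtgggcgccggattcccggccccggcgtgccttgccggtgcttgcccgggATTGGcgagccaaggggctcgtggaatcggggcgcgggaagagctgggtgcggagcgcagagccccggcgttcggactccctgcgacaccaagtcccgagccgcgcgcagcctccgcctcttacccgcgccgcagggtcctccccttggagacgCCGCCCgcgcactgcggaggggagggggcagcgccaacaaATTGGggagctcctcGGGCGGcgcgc
Col4a2: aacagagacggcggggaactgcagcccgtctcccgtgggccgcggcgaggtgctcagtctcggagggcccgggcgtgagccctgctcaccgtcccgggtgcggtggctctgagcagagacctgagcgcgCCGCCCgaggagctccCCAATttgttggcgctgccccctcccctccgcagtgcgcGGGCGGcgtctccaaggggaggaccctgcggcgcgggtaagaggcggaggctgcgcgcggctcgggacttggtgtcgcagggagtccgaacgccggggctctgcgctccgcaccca
Col1a2: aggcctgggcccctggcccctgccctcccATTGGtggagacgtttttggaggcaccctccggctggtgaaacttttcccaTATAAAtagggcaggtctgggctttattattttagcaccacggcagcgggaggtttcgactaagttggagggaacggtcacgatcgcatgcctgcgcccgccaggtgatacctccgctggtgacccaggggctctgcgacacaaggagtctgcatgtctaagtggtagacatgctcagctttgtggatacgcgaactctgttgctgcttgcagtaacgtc
Col5a2: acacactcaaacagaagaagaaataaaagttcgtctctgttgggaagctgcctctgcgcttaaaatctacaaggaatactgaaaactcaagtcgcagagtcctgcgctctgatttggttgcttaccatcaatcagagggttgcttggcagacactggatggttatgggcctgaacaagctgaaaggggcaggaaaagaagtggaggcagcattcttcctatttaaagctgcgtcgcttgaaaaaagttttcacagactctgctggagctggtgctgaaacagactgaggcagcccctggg
The stretch that Col4a1 and Col4a2 share held 2 GC boxes and 1 CCAAT box. The Col1a2 region held 1 CCAAT box and 1 TATA box, and none of the 3 motifs was in the Col5a2 window. A GC box was present in 18 of the 32 collagen start regions (56.2%) and in 34.9% of all 27457 regions of the same length. A CCAAT box was found in 9 (28.1%, against 37.7% of all regions) and a TATA box in 4 (12.5%, against 14.3%). These are matches of letters only, and the 27457 regions were not limited to genes measured here, as the 32 were.

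The first comparison set tumor against nontumor liver of the same age. Collagen transcripts differed in both directions. Of the 41 genes, 22 were higher in tumor liver (53.7%, beside 38.8% of all genes called higher). Another 11 were lower (26.8%), a share near the 29.2% of all genes called lower. The remaining 8 did not pass the adjusted p threshold of 0.05 (limma, adjusted over all 31042 probe sets). The median difference over the 41 genes was 0.32 log2 units, against 0.07 over all genes. Of the 22 rises, 16 had a fitted difference of at least 1 unit, and 14 of these were in genes above the absent range on all arrays. No fitted fall reached 1 unit, although that of Col13a1 has only a lower bound, since it was absent on all tumor arrays.

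Type I and III chains, the main fibril formers, and the type V chain Col5a2 led the fibrillar class. Col1a1, the major chain of type I collagen, was at 8.26, 9.27, 8.98 and 8.61 on nontumor arrays 1 to 4 and at 11.49, 11.64, 11.95 and 11.26 on tumor arrays 1 to 4. All tumor arrays lay above all nontumor arrays, by 2.80 ± 0.22 log2 units (SE, 4 arrays against 4), a 6.99-fold difference (adjusted p = 1.6e-05). Its partner chain Col1a2 read 8.42, 8.83, 8.74 and 8.11 in nontumor and 11.10, 11.10, 11.32 and 10.77 in tumor liver, a rise of 2.54 ± 0.17 (5.83-fold, adjusted p = 7.7e-06). In both type I chains the lowest tumor array was array 4, and nontumor arrays 2 and 3 were above arrays 1 and 4.

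Col3a1, which forms the fine fibrils of loose and early scar tissue, rose less. It read 10.95, 11.07, 11.20 and 10.66 in nontumor and 12.69, 12.72, 12.94 and 12.47 in tumor liver, a difference of 1.74 ± 0.14 (3.33-fold, adjusted p = 1.5e-05). The groups did not overlap, and array 3 was the highest of each. Col5a2, a type V chain that is built into type I fibrils, was at 7.99, 8.53, 8.43 and 7.58 against 10.87, 10.96, 11.23 and 10.60, a rise of 2.78 ± 0.22 (6.89-fold, adjusted p = 1.5e-05). Its lowest tumor array stood more than 2 units above its highest nontumor array.

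The other type V chains did not follow Col5a2. Col5a1 was at 9.26, 9.13, 9.58 and 9.45 in nontumor and at 9.48, 9.78, 9.61 and 9.53 in tumor liver, so that the groups overlapped (0.25 ± 0.11, adjusted p = 0.0832). With the values quantile normalized again its difference was -0.05, and its second probe set was called higher by 0.81 (adjusted p = 0.00129). Without nontumor array 3 the brighter probe set was called as well (0.32, adjusted p = 0.0349). Col5a3 was lower, at 7.61 to 8.09 in tumor against 8.05 to 9.08 in nontumor liver (-0.67 ± 0.24, adjusted p = 0.0362). The nontumor values spread widely and touched those of the tumor arrays. The Col5a3 call was lost without nontumor array 3 (adjusted p = 0.0958) or 4 (0.0824) and without tumor array 1 (0.093), 2 (0.0756) or 4 (0.0597).

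Over the whole fibrillar class, 5 of 11 chains rose (45.5%, beside 38.8% of all genes) and 4 fell (36.4%, beside 29.2%). The other 2 were not called, and the median difference was 0.25. Col27a1 was the remaining rise (0.71 ± 0.16). The falls besides Col5a3 were all in chains best known from cartilage. Col11a1 fell by 0.82 (SE 0.11, adjusted p = 0.00024), from 6.92 to 7.22 on the nontumor arrays down to 6.07 to 6.48 on the tumor arrays, and Col2a1 fell by 0.30 and Col11a2 by 0.28. All 3 genes of a cartilage marker list fell as well, Acan by 0.65, Matn1 by 0.62 and Comp by 0.71. On the tumor arrays all 6 genes were below the array medians of 7.48 to 7.51, and 26 of the 27 bacterial probe sets were also lower in tumor liver, with a median difference of -0.16 and a range of -0.69 to 0.08. The part of this low-end shift in the falls was not tested.

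**Figure D1:**
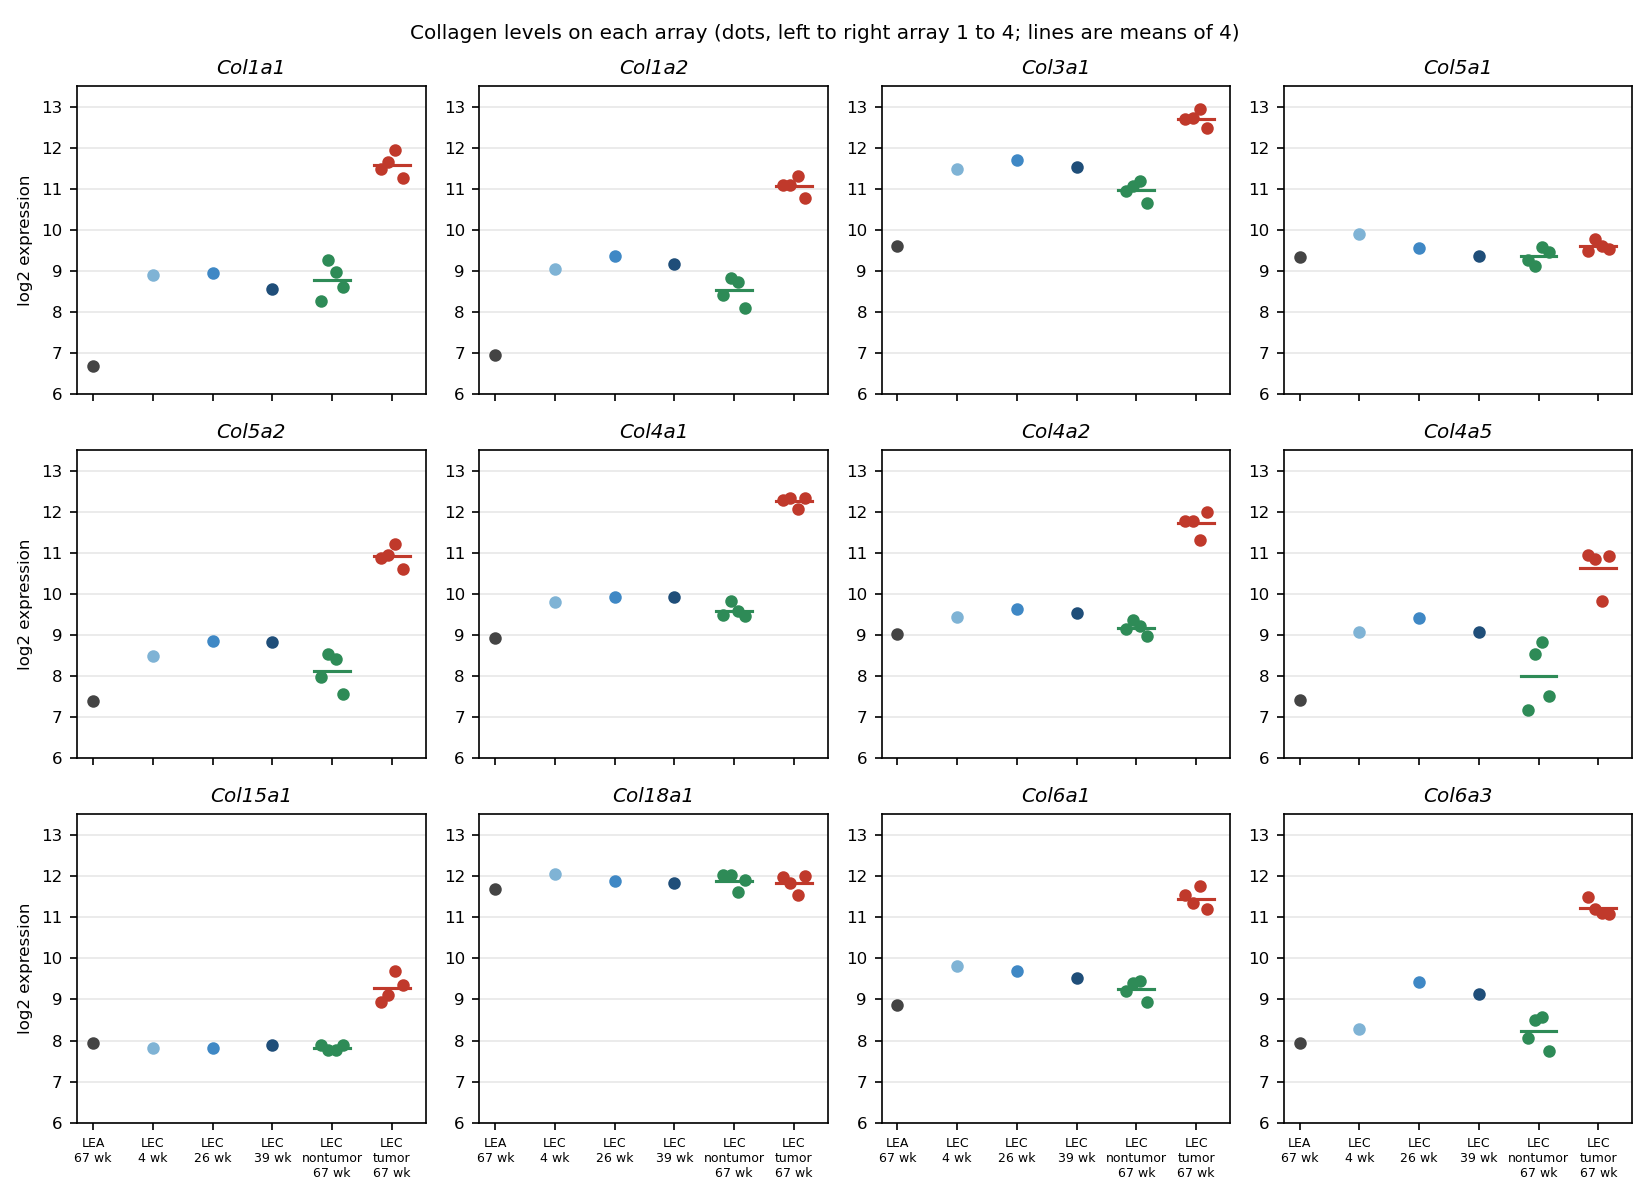
Log2 expression of 12 collagen genes on each of the 12 arrays, grouped on the horizontal axis by strain, age and tissue; dots are arrays and horizontal lines the means of the 4 nontumor or 4 tumor arrays. For Col1a1 the LEA array is at 6.68, the nontumor arrays at 8.26 to 9.27 and the tumor arrays at 11.26 to 11.95, while for Col18a1 the tumor and nontumor arrays overlap.

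Among the basement membrane chains, 4 of 7 rose (57.1%, beside 38.8% of all genes) and 2 fell (28.6%, near the 29.2% of all genes). The other 1 was not called, and the median difference was 1.44. Col4a1 and Col4a2, which together make the common type IV network, rose side by side. Col4a1 read 9.48, 9.82, 9.59 and 9.46 in nontumor and 12.29, 12.35, 12.08 and 12.33 in tumor liver (2.68 ± 0.10, 6.39-fold, adjusted p = 8.9e-07). Col4a2 read 9.14, 9.37, 9.23 and 8.99 against 11.77, 11.79, 11.32 and 11.99 (2.54 ± 0.15, 5.81-fold, adjusted p = 3.3e-06). Both genes were highest on nontumor array 2 and lowest on tumor array 3 within their groups. Of the collagens, Col4a1 had the lowest adjusted p in this comparison. These are the genes whose shared start region is printed above.

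The other type IV chains split. Col4a5, a chain of specialised basement membranes, was at 7.17, 8.54, 8.83 and 7.51 in nontumor and at 10.95, 10.86, 9.84 and 10.93 in tumor liver (2.63 ± 0.40, 6.20-fold, adjusted p = 5.4e-04). It had the widest spread of the large rises, with nontumor arrays 2 and 3 more than 1 unit above arrays 1 and 4 and tumor array 3 about 1 unit below the rest. Col4a6 fell by 0.43, from 6.51 to 7.10 in nontumor liver, and Col4a4 by 0.33, from 5.93 to 6.39. Each of these 2 calls was lost without tumor array 3 (adjusted p = 0.0567 and 0.0561), and that of Col4a6 also without tumor array 4 (0.0523).

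The multiplexins XV and XVIII, which sit at basement membranes and release the fragment endostatin in the case of Col18a1, went different ways. Col15a1 rose from 7.89, 7.77, 7.76 and 7.89 in nontumor to 8.94, 9.11, 9.68 and 9.34 in tumor liver (1.44 ± 0.15, 2.72-fold, adjusted p = 6.1e-05). Col18a1, which hepatocytes are known to make, was high on every array, at 12.03, 12.02, 11.61 and 11.90 in nontumor and 11.97, 11.84, 11.53 and 12.01 in tumor liver. Its groups overlapped throughout (-0.06 ± 0.13, adjusted p = 0.733), and in each group array 3 was the lowest. The mean of the hepatocyte genes was lower on all 4 tumor arrays, at 12.69, 11.70, 13.26 and 9.57.

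In the class of other chains, 13 of 23 rose (56.5%, beside 38.8% of all genes) and 5 fell (21.7%, beside 29.2%). A further 5 were not called, and the median difference was 0.32. All 3 chains of the common type VI collagen, which forms beaded filaments around cells, rose. Col6a3 had the largest rise of all collagens, from 8.07, 8.50, 8.57 and 7.75 in nontumor to 11.49, 11.20, 11.10 and 11.07 in tumor liver (2.99 ± 0.19, 7.97-fold, adjusted p = 4.9e-06). Col6a1 went from 9.20, 9.41, 9.46 and 8.93 to 11.53, 11.34, 11.76 and 11.19 (2.21 ± 0.15, 4.61-fold, adjusted p = 8.2e-06). Col6a2 went from 8.00, 8.16, 8.15 and 7.55 to 10.07, 9.86, 10.40 and 9.87 (2.09 ± 0.17, 4.25-fold, adjusted p = 1.7e-05). No tumor array of these 3 genes came within 1 unit of a nontumor array, and nontumor array 4 was the lowest for each. The late-found type VI chains Col6a5 (-0.09 ± 0.14) and Col6a6 (0.24 ± 0.29) did not pass the threshold, and Col6a6 was absent on 7 of 12 arrays.

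Type VIII collagen, a short-chain network former of vessel walls, rose in both of its chains. Col8a1 was at 8.27, 7.90, 8.30 and 7.98 in nontumor and at 9.27, 9.29, 9.60 and 9.31 in tumor liver (1.26 ± 0.12, 2.39-fold, adjusted p = 4.1e-05). Col8a2, singled out after its values were seen, was at 6.20, 6.59, 6.47 and 5.60 in nontumor liver, the last of these within the absent range, and at 8.90, 8.75, 8.93 and 8.76 in tumor liver (2.62 ± 0.19, adjusted p = 1.2e-05). Its tumor arrays lay close together and stood more than 2 units above every other array of the series.

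Of the chains that decorate fibrils, Col12a1 rose and Col14a1, a close relative, did not pass the threshold. Col12a1 read 7.63, 7.57, 7.91 and 7.55 in nontumor and 8.90, 8.82, 9.03 and 9.34 in tumor liver (1.36 ± 0.13, 2.56-fold, adjusted p = 4.3e-05). Its 2 dimmer probe sets gave 0.34 and -0.40, both called, so the direction differed between probe sets. These 2 passed the absent range on 7 and 8 of the 12 arrays, and the brightest on all 12. Col14a1 read 9.98, 9.89, 10.21 and 9.61 against 9.99, 10.15, 9.23 and 10.14, with tumor array 3 below all nontumor arrays and the rest among them (-0.04 ± 0.22, adjusted p = 0.872). Without tumor array 3 the Col14a1 difference was 0.17 (adjusted p = 0.304). All 3 chains of type IX collagen, another fibril decorator best known from cartilage, rose: Col9a3 by 2.35 ± 0.15 (adjusted p = 4.6e-06), Col9a2 by 0.77 and Col9a1 by 0.47. Col9a3, named after its values were seen, was at 6.20 to 6.34 in nontumor and 8.15 to 8.87 in tumor liver, while Col9a1 was absent on every nontumor array, which leaves at least a 1.05-fold rise.

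The 5 falls in this class were small. Col13a1, a transmembrane collagen, was at 6.33, 6.39, 6.01 and 6.41 in nontumor liver and absent on all tumor arrays at 5.35, 5.07, 5.41 and 5.44 (-0.97 ± 0.12, adjusted p = 1.5e-04). Against the absent range this is at least 1.62-fold lower. Col20a1 fell by 0.66 (SE 0.12, adjusted p = 0.00172) and Col19a1 by 0.61 (SE 0.09, adjusted p = 4.2e-04), 2 further chains related to the fibril decorators. Col26a1 fell by 0.49 and Col22a1 by 0.25. The rises not yet named were Col25a1, Col16a1 (0.43), Col7a1 (0.32) and Col17a1. Col25a1 passed the absent range on 1 tumor array and no nontumor array and so has no fold. Col7a1 passed it on 1 nontumor array and all 4 tumor arrays, and its groups overlapped. Col17a1 was absent on every nontumor array and at least 1.06-fold higher in tumor liver.

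**Figure D2:**
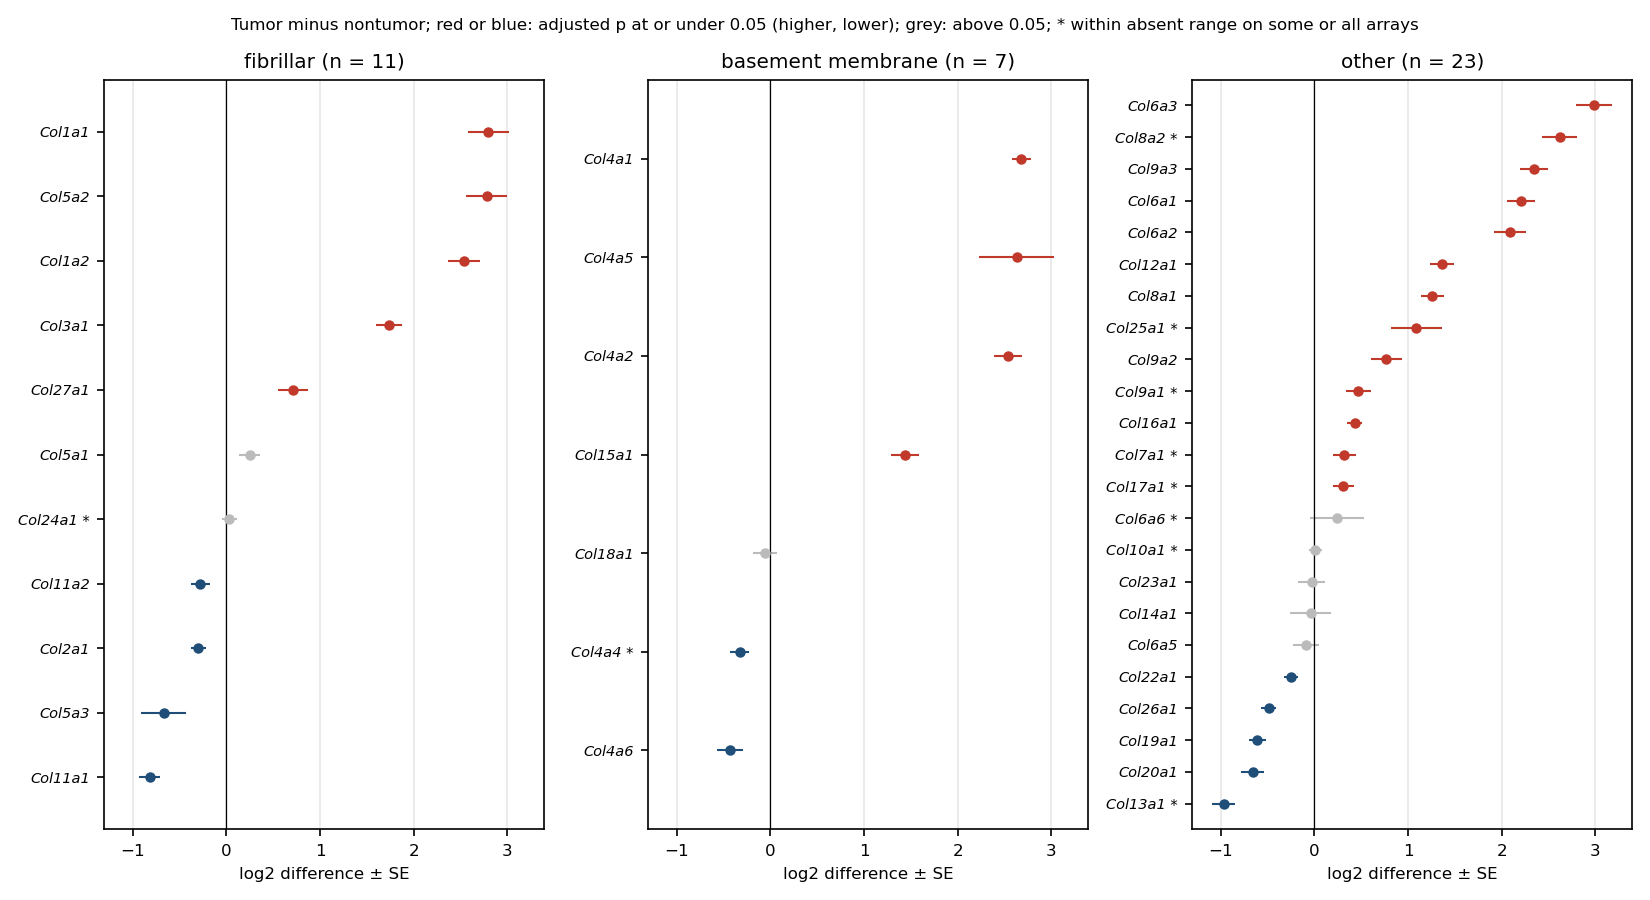
Tumor minus nontumor difference in log2 units for all 41 collagen genes, sorted within the fibrillar, basement membrane and other classes; points are fitted differences and bars their standard errors. Rises reach 2.99 (Col6a3); among genes above the absent range on all arrays the deepest fall is -0.82 (Col11a1), and the point of Col13a1, absent in tumor liver, stands for a fall of at least 0.69.

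The counts were also taken by signal level. Of the 31 genes above the absent range on all 12 arrays, 17 rose and 9 fell with a median difference of 0.71, beside a median of 0.14 over the 11833 genes of the array that met the same condition. Of those 11833 genes 4975 rose (42.0%, against 54.8% of the 31 collagens) and 3194 fell, a share near that of the collagens. Of the other 10, 5 rose (50%, beside 38.8% of all 14217 genes) and 2 fell (20%, beside 29.2%). The 14217 genes include the 11833 brighter ones, so these shares are not of genes with a like signal. Col10a1 and Col24a1 were absent on every array. Every tumor array was above every nontumor array for 21 of 41 genes, beside 36.1% of all genes, and below for 9, beside 27.7%.

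Leaving out each tumor or nontumor array in turn kept 27 of the 33 calls throughout, and the 6 others were Col4a4, Col4a6, Col5a3, Col7a1, Col11a2 and Col17a1. The Col7a1 call was lost without any array but tumor array 3 (adjusted p = 0.0503 to 0.104). That of Col17a1 was lost without each nontumor array or tumor array 2 (0.0513 to 0.0855), and that of Col11a2 without nontumor array 1, 3 or 4 or tumor array 1 or 2 (0.0595 to 0.107). Quantile normalizing again moved the median of all genes from 0.07 to -0.04, and with it Col4a4 (adjusted p = 0.127) and Col16a1 (0.0584) were no longer called. Subtracting each array's median also gave -0.04 for all genes and ended the calls of Col7a1 (0.129) and Col17a1 (0.141).

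Of the 14 genes with several probe sets, 9 gave the same call with all of them and 5 did not. The dimmer probe sets of Col1a1 (1.99), Col1a2 (2.38), Col4a1 (2.58), Col5a2 (3.06), Col6a3 (1.56) and Col15a1 (2.33) were also called higher. Those that differed were Col5a1 and Col12a1, given above, Col6a2, whose second probe set was at -0.14 ± 0.13 (adjusted p = 0.382), Col4a6, whose second, absent on all arrays, was at 0.15, and Col11a1, with -0.25 and 0.05 from probe sets that were also absent on all arrays.

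**Figure D3:**
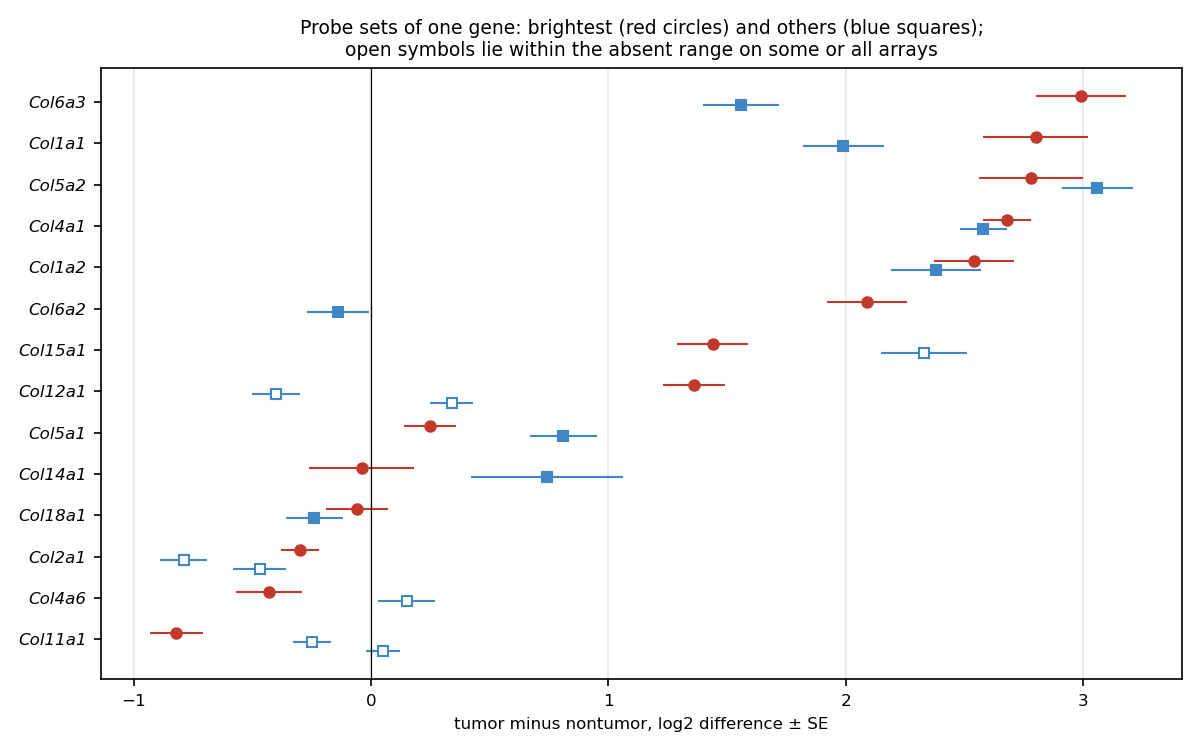
Tumor minus nontumor difference in log2 units, with standard errors, for every probe set of the 14 collagen genes that had several; red circles are the brightest probe set and blue squares the others, open where the level was absent on some or all arrays. The probe sets of Col1a2 and Col4a1 lie close together, and those of Col6a2 (2.09 and -0.14) and Col12a1 (1.36, 0.34 and -0.40) lie apart.

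Neighbouring collagen genes did not always go the same way. In 5 cases a pair of measured collagen genes has no other protein-coding gene between its members in the RefSeq gene table of GRCr8. Both members rose in Col4a1 and Col4a2 on chromosome 16, Col6a1 and Col6a2 on chromosome 20, and Col3a1 and Col5a2 on chromosome 9. On the same chromosome 9, Col9a1 rose by 0.47 and its neighbour Col19a1 fell by 0.61. Col6a5 and Col6a6 on chromosome 8 were not called.

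Markers of collagen-making cells also differed between tumor and nontumor liver. Of 13 stellate cell and fibroblast genes, 10 rose and 1 fell in tumor liver, beside 38.8% and 29.2% of all genes, and their mean was 8.10 to 8.54 on the nontumor arrays and 9.98 to 10.48 on the tumor arrays. The fibril-binding proteoglycan lumican (Lum), also of this list, passed the absent range on 5 of the 12 arrays. Among the rises were the pericyte receptor Pdgfrb (1.95 ± 0.13) and another such proteoglycan, decorin (Dcn, 2.92 ± 0.21). Bile duct genes moved too: 5 of 6 rose, with a mean of 8.28 to 9.11 in nontumor and 11.78 to 12.09 in tumor liver. Endothelial genes went both ways (4 of 7 rose and 3 fell), with a mean of 9.55 to 9.89 in nontumor and 9.56 to 9.96 in tumor liver. Of 7 macrophage genes 4 rose and 2 fell (10.03 to 10.70 against 10.21 to 10.57), and of 7 T and B cell genes 4 rose and none fell (7.27 to 7.39 against 8.12 to 8.50). On nontumor arrays 2 and 3 the bile duct mean was 9.11 and 9.02 and the stellate mean 8.41 and 8.54. On arrays 1 and 4 the bile duct mean was 8.34 and 8.28 and the stellate mean 8.16 and 8.10. Col1a1, Col1a2, Col5a2, Col6a3 and Col4a5 were among the collagens highest on arrays 2 and 3. For Col5a1, Col8a1, Col12a1, Col14a1, Col15a1 and Col18a1, arrays 2 and 3 were not both above arrays 1 and 4. The share of all genes with either order was not counted. Among the tumor arrays the stellate mean was highest on array 3 (10.48). Col1a1, Col1a2 and Col5a2 were also highest there, while Col4a5 was lowest there and Col6a3 was highest on array 1. The part of any cell type in the collagen differences was not tested, and in these tissue pools more cells of a type and more RNA per cell cannot be told apart.

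Genes that modify and fold collagen chains inside the cell differed in both directions. Of 19 measured, 8 rose (42.1%, near the 38.8% of all genes) and 4 fell (21.1%, beside 29.2%), with a median of 0.18. Plod2, the lysyl hydroxylase whose product sets the cross-links typical of scar, rose from 8.00 to 8.54 on the nontumor arrays to 11.40 to 12.14 on the tumor arrays (3.47 ± 0.17, 11.1-fold, adjusted p = 1.8e-06). Its relative Plod1 fell by 0.43. The collagen chaperone Serpinh1 rose by 1.90 ± 0.39 (adjusted p = 0.00267), with nontumor arrays at 9.22, 10.10, 11.10 and 11.14, the widest spread of this list. Fkbp10 (1.38), which folds procollagen, and P3h3 (1.19), of the prolyl 3-hydroxylase family, rose as well, and Tmem38b, an ion channel needed for collagen modification, fell by 1.47.

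Outside the cell, 7 of 10 genes for processing, cross-linking and fibril assembly rose and 1 fell, beside 38.8% and 29.2% of all genes, with a median of 1.22. The cross-linking enzymes Lox (3.27 ± 0.23, adjusted p = 8.1e-06) and Loxl1 (3.23 ± 0.16, adjusted p = 1.6e-06) both rose over 9-fold. Sparc, which binds collagen in the matrix, went from 9.69, 9.81, 9.83 and 9.66 to 11.82, 11.82, 11.69 and 11.84 (2.05 ± 0.07, adjusted p = 7e-07). Periostin (Postn), a fibril-binding matrix protein, was absent on all nontumor arrays and at 7.61 to 9.42 in tumor liver, at least 6.03-fold higher. Bmp1, which trims the end of procollagen, fell by 0.71. Of 5 collagen receptors, 3 rose: Ddr1 (1.75 ± 0.32), Ddr2 (1.27 ± 0.23) and the integrin chain Itgb1 (1.27 ± 0.08), and none fell, beside the same shares of all genes. Ddr2 passed the absent range on 7 of the 12 arrays and was absent on nontumor arrays 1 (5.90) and 2 (5.81).

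**Figure D4:**
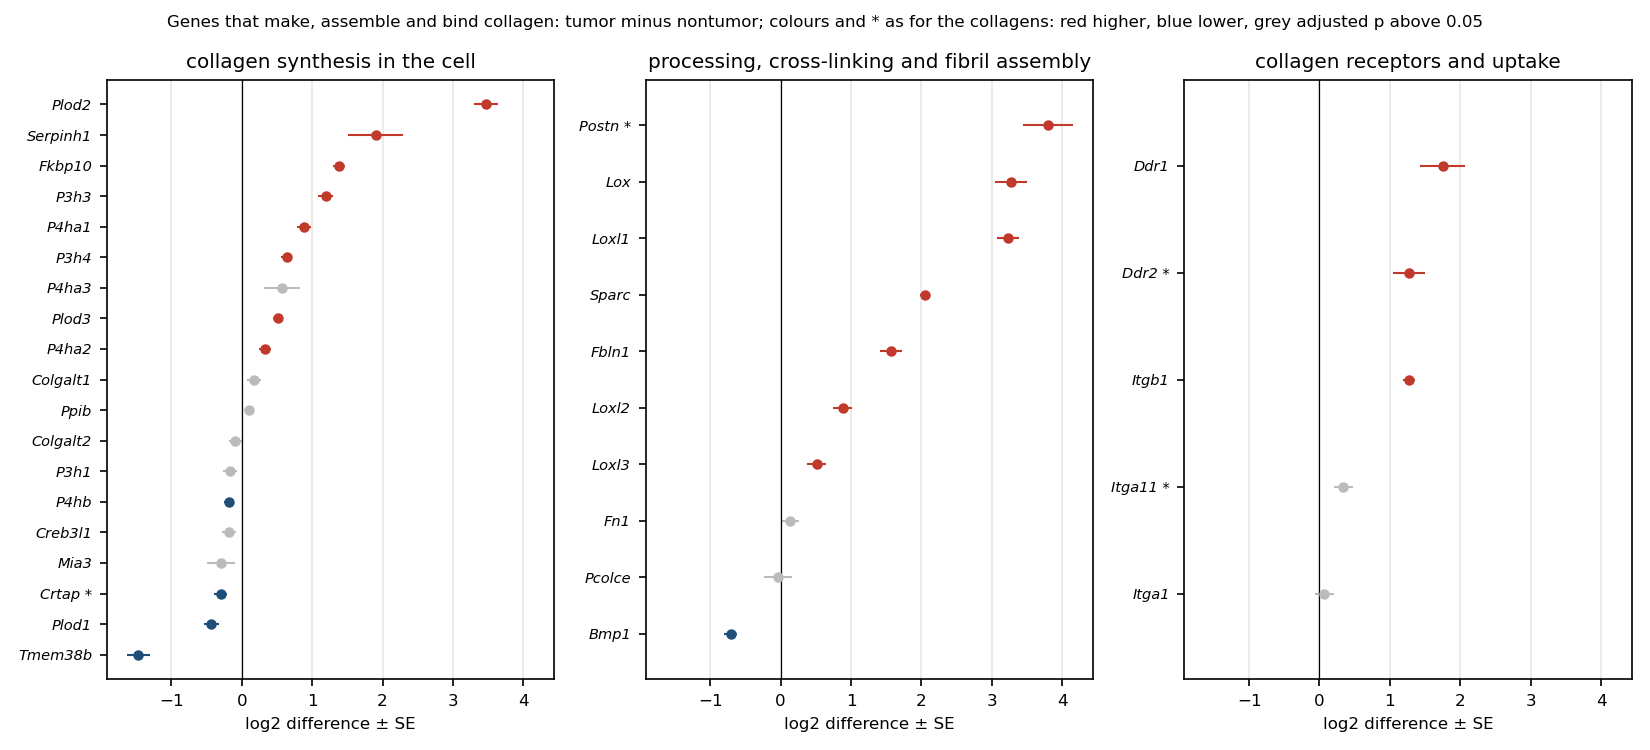
Tumor minus nontumor difference in log2 units, with standard errors, for genes of collagen synthesis (19), of processing and cross-linking (10) and of collagen reception (5). Plod2 (3.47), Lox (3.27) and Loxl1 (3.23) are high and Tmem38b (-1.47) is the deepest fall; the point of Postn, absent in nontumor liver, stands for a rise of at least 2.59.

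The second comparison set LEC nontumor liver against LEA liver at the same age of 67 weeks, with the same nontumor arrays as above. The type I chain Col1a1 and the type III chain Col3a1 were higher in LEC nontumor liver. Of the 41 collagen genes, 2 were called higher, beside 0.232% of all genes, and none lower, beside 0.331%. At an unadjusted p under 0.05, 6 of 41 were higher and 2 lower, beside 5.12% and 7.24% of all genes. The median difference was 0.11 against -0.03 over all genes, with 0.25 for fibrillar, 0.20 for basement membrane and 0.01 for other chains.

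The LEA array read 6.68 for Col1a1, the lowest value of the gene in the series, against 8.26 to 9.27 on the nontumor arrays (2.10 ± 0.35, 4.29-fold, adjusted p = 0.0455). It read 9.61 for Col3a1, against 10.66 to 11.20 (1.36 ± 0.21, 2.56-fold, adjusted p = 0.0369). Col1a2, at 6.96 against 8.11 to 8.83, narrowly missed the threshold with its brighter probe set (1.56 ± 0.27, adjusted p = 0.0548) and passed it with its second (1.79, adjusted p = 0.0453). For all 3 genes the LEA array was below each nontumor, tumor and younger LEC array.

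These calls rest on a single LEA pool whose spread was taken from the replicated groups, and both were lost without certain arrays. The adjusted p of Col1a1 was then 0.0544, 0.112 and 0.0694 without nontumor arrays 2, 3 and 4 and 0.103, 0.106 and 0.066 without tumor arrays 1, 2 and 4. That of Col3a1 was 0.0519, 0.0701 and 0.0804 without nontumor arrays 1, 2 and 3 and 0.0882 and 0.0869 without tumor arrays 1 and 2. Without nontumor array 4, Col1a2 was called (1.70, adjusted p = 0.0234). The second Col1a1 probe set gave 0.81 ± 0.28 (adjusted p = 0.289).

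Besides Col1a1 and Col3a1, no collagen was called with its brightest probe set. Col14a1 was at 8.86 on the LEA array and 9.61 to 10.21 on the nontumor arrays (1.06 ± 0.34, adjusted p = 0.259). Col4a1 was at 8.92 against 9.46 to 9.82 (0.66 ± 0.16, adjusted p = 0.147), and its second probe set was called (1.01 ± 0.17, adjusted p = 0.0413), although its head-to-head partner Col4a2, at 9.04, lay among the nontumor arrays (0.14 ± 0.23, adjusted p = 0.85). Col5a2 (0.72 ± 0.34), Col12a1 (0.54 ± 0.21) and Col6a1 (0.39 ± 0.24) also had the LEA array below all 4 nontumor arrays.

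Col5a1 (0.03 ± 0.18), Col6a2 (0.12 ± 0.27), Col6a3 (0.28 ± 0.29), Col8a1 (0.19 ± 0.19) and Col18a1 (0.20 ± 0.21) had it among them, and Col15a1 (-0.11 ± 0.23), at 7.94, had it above them. In all, the LEA array was below every nontumor array for 11 of 41 collagens (26.8%, against 20.0% of all genes) and above for 8 (19.5%, against 28.8%). For the 31 collagens above the absent range on all arrays, it was below for 10 (32.3%) and above for 3 (9.68%). The shares of all genes are not limited to that range. The stellate mean was 7.83 on the LEA array, below the nontumor range of 8.10 to 8.54, and the bile duct mean 7.81, below 8.28 to 9.11, with no gene of either list called. Their part in the collagen differences was not tested.

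Of the genes that make, assemble and bind collagen, only Itga1, the alpha chain of a collagen-binding integrin, was called against LEA. It was at 8.97 on the LEA array and 10.24 to 10.58 on the nontumor arrays (1.39 ± 0.22, adjusted p = 0.038). Plod2 was at 6.91 against 8.00 to 8.54 (1.41 ± 0.27, adjusted p = 0.0783).

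**Figure D5:**
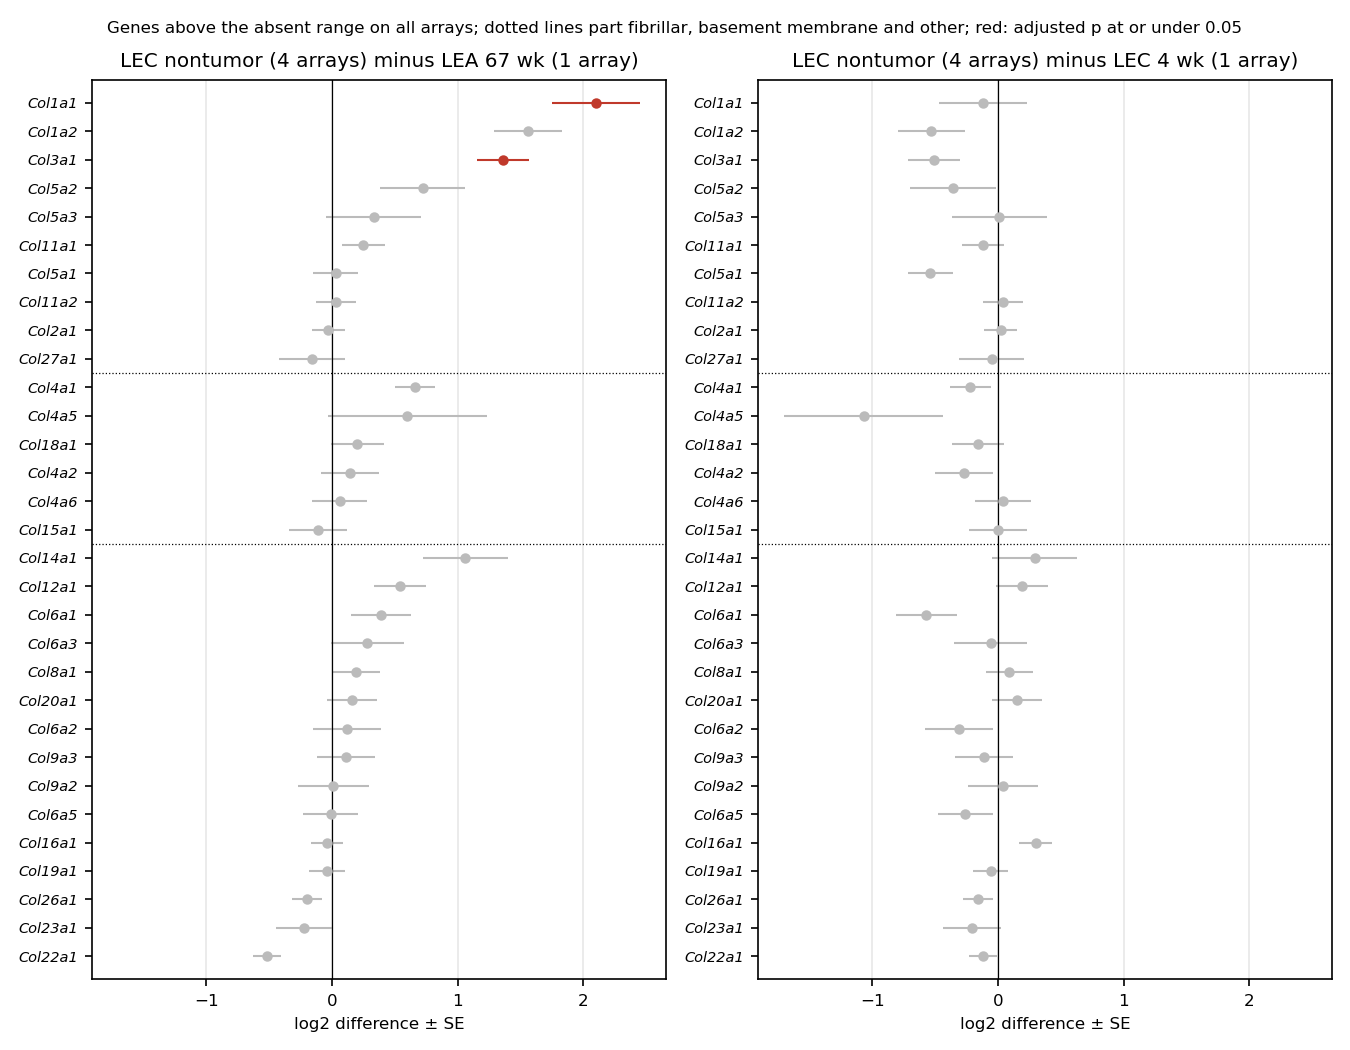
LEC nontumor liver (4 arrays) minus LEA liver at 67 weeks (1 array, left) and minus LEC liver at 4 weeks (1 array, right), in log2 units with standard errors, for the 31 collagen genes above the absent range on all arrays. Only Col1a1 (2.10) and Col3a1 (1.36) pass the threshold on the left, and no gene does on the right.

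The third comparison set the same nontumor arrays against LEC liver at 4 weeks. No collagen was called in either direction, beside 0.232% of all genes called higher and 0.232% called lower. At an unadjusted p under 0.05, 2 were higher (Col4a4 and Col16a1) and 3 lower (Col3a1, Col5a1 and Col6a1), beside 7.17% and 6.33% of all genes. The median difference was -0.06, against 0.00 over all genes. Among the genes of collagen processing, Sparc was called lower in nontumor liver, by 0.85 (SE 0.12, adjusted p = 0.0274), with 10.60 at 4 weeks against 9.66 to 9.83.

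Many collagens were nevertheless above all 4 nontumor arrays in the young liver. This held for 15 of 41 genes (36.6%, against 24.3% of all genes) at 4 weeks, and 5 were below (12.2%, against 24.6%). Col3a1 was at 11.48 at 4 weeks, above the nontumor range of 10.66 to 11.20 (nontumor minus 4 weeks -0.51 ± 0.21, adjusted p = 0.352). Col1a2 at 9.05 (-0.53 ± 0.27, adjusted p = 0.46) and Col6a1 at 9.82 (-0.57 ± 0.24, adjusted p = 0.355) were also above their nontumor arrays. Col5a1 was at 9.89, its highest value on any of the 12 arrays, tumor arrays included (-0.54 ± 0.18, adjusted p = 0.245). Col1a1 at 8.90 (-0.12 ± 0.35), Col5a2 at 8.49 and Col6a3 at 8.28 lay within the nontumor range.

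The LEC 26-week and 39-week arrays are given by their values only. Col1a1 was at 8.94 and 8.56, within the nontumor range of 8.26 to 9.27. Col1a2 was at 9.37 and 9.17, Col3a1 at 11.71 and 11.53 and Col5a2 at 8.87 and 8.84, each above all 4 nontumor arrays and below all 4 tumor arrays. The mean log2 level of the 11 fibrillar chains was 7.62 on the LEA array. On the LEC arrays of 4, 26 and 39 weeks it was 8.36, 8.40 and 8.27. It was 8.05 to 8.30 on the nontumor arrays and 8.86 to 9.07 on the tumor arrays. In this mean all LEC arrays were above the LEA array, and the tumor arrays above all others. By gene, the LEA array was below every nontumor array for 5 of the 11 (45.5%, against 20.0% of all genes). It lay among them for 5 and above them for 1 (9.09%, against 28.8%). The largest differences of nontumor from LEA liver in the class were those of Col1a1 (2.10), Col1a2 (1.56) and Col3a1 (1.36).

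The 4-week value of Col6a3, 8.28, lay among the nontumor arrays, at 7.75 to 8.57, while its 26-week and 39-week values of 9.43 and 9.12 lay above them. Col5a2, above, and Col4a1 (9.81 at 4 weeks) had the same order. Col14a1 was at 9.63 at 4 weeks and at 10.33 and 10.27 later, the highest values of the gene on any array. Col4a1 (9.92 and 9.93) and Col4a2 (9.63 and 9.54) were slightly above the nontumor arrays at both ages, and Col4a5 (9.41 and 9.07) was as well. Col15a1 (7.82 and 7.89) and Col18a1 (11.87 and 11.84) were close to their nontumor means of 7.83 and 11.89. Over the class, the basement membrane mean was 8.66, 8.80 and 8.76 at 4, 26 and 39 weeks and 8.33 to 8.64 on the nontumor arrays.

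At 26 weeks 15 of 41 collagens (36.6%, against 29.0% of all genes) were above every nontumor array and 6 (14.6%, against 18.9%) below. At 39 weeks 18 (43.9%, against 32.3%) were above and 4 (9.76%, against 13.3%) below. The stellate mean was 8.11, 8.45 and 8.48 on the arrays of 4, 26 and 39 weeks, and the bile duct mean 7.80, 8.71 and 8.93. With a single pool per age, and with the 26-week and 39-week arrays opposite to the others in Xist and Eif2s3y, age and these other differences between the pools cannot be told apart.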

How the data were processed

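Total RNA from rat liver was labelled with biotin, from 3 µg, and hybridized to 12 Affymetrix rat expression arrays, per the labels. The authors deposited log2 expression values, which the submitters' processing notes credit to RMA and R 2.6.1. Whether all arrays were normalized together is not given in the sources used here.

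Of 31099 probe sets, 57 controls were left out and 31042 were tested. GEO's platform annotation named 1 gene for 20826 of them, several for 436 and none for 9780. The deposited log2 values were fitted with limma 3.58.1 (lmFit and eBayes, R 4.3.3) as 6 group means, with 6 residual and 2.84 prior degrees of freedom. Tests were two-sided, with Benjamini-Hochberg adjustment across every tested probe set and a threshold of 0.05. The 4 groups of a single array give no estimate of spread and are assumed to vary like the replicated groups. P-values measure the spread between RNA pools. The fit was tested on simulated data.

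Named genes were the main fibrillar, basement membrane and type VI, VIII, XII and XIV chains, and the 5 largest called rises and falls of each comparison. Up to 4 rises and 2 falls were named of each list of related genes. The members, lists and tests were chosen with earlier results of these data known. Alternatives were other scalings, priors, array weights, probe set rules and thresholds, a replicate block and leaving out each array. Figures were drawn with matplotlib 3.10.9.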

Additional observations from a re-analysis of the deposited data

Results flagged for a closer look

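For 3 collagen genes, 1 tumor array lay far from the other 3 tumor arrays by Dixon's gap test at its 95% critical value, and it was tumor array 3 each time. Col4a5 was at 9.84 on this array, and the next tumor value was 10.86. Without tumor array 3 the Col4a5 difference from nontumor liver was 2.90 (adjusted p = 3.6e-04, limma). Col14a1 was at 9.23, below the next tumor value of 9.99. Col8a1 went the other way, at 9.60 above the next value of 9.31, and without this array its difference was 1.18 (adjusted p = 7.6e-05). Such gaps were sought in 42 groups of 4 arrays, for 21 genes, and chance flags about 1 in 20 groups. On tumor array 3 the mean of the hepatocyte genes was the highest of the tumor arrays, at 13.26, and that of the stellate cell and fibroblast genes as well, at 10.48. The part of either in these values was not tested.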

How the results depend on the processing

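For tumor against nontumor liver, the count of collagens called higher stayed between 16 and 23 under every alternative run, against 22. The count called lower, 11, was 2 without dim probe sets, which left 21 collagens, and 0 with a 2-fold threshold. The median difference, 0.32, was 0.43 with quantile normalization repeated, 0.43 with the mean over a gene's probe sets, 0.22 with array medians subtracted and 1.44 without dim probe sets. With the replicate block, which pairs arrays by their title numbers, 22 were called higher and 10 lower. Deviations of same-numbered tumor and nontumor arrays had correlations of 0.054, 0.142, -0.082 and 0.142, against -0.144 to 0.108 for differently numbered arrays. These weak values do not settle whether the numbers mark the specimen pairs. The sources do not say that they do, so the main fit did not use the numbers as pairs.

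For nontumor against LEA liver, the 2 genes called higher became 1 with the mean over probe sets (Col1a1 lost, adjusted p = 0.109) and 0 with only the compared groups in the fit (limma, Col1a1 0.225 and Col3a1 0.18), and leaving out 1 array gave 0 to 2. Col1a2 was called in addition with quantile normalization repeated (adjusted p = 0.0419), array medians subtracted (0.0472) and array weights (0.0137). The median, 0.11, was 0.28 without dim probe sets. Against LEC 4 weeks no collagen was called under any alternative, and the median of -0.06 was -0.16 without dim probe sets and -0.10 to -0.06 leaving out 1 array. None of the 33 calls of tumor against nontumor liver or the 2 against LEA changed sign under the alternatives run. Differences that were not called did for 7, 10 and 11 genes in the 3 comparisons, such as, in tumor liver, Col5a1 (down to -0.05), Col14a1 (up to 0.35) and Col18a1 (up to 0.05). The cause of these shifts was not tested.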
